A study of Drosophila melanogaster with 16 samples.

Results

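Heat shock protein genes encode chaperones, proteins that hold or refold other proteins when these lose their shape. The set described here has 7 members, listed by their FlyBase identifiers, among the 15149 rows of an RNA table. The rule that defines it uses no measured value, but the members were chosen with earlier results of these data known. They are the transcription factor gene Hsf (FBgn0001222), the small heat shock protein genes Hsp22 (FBgn0001223), Hsp23 (FBgn0001224), Hsp26 (FBgn0001225) and Hsp27 (FBgn0001226), the Hsp70 family gene Hsp68 (FBgn0001230) and Hsp83 (FBgn0001233), which encodes the fly Hsp90. Poly(A)+ RNA of Drosophila melanogaster S2 cells, a macrophage-like line of late embryonic origin, was sequenced in 2 libraries of control cells and 2 libraries of Lam-KD cells. Control cells had received dsRNA against the bacterial lacZ gene and Lam-KD cells dsRNA against lamin Dm0. The RNA of the targeted gene was not checked, because no source used here pairs its identifier with its name, so every direction given below rests on the labels of the libraries. The sample records give 5 days of dsRNA treatment for both conditions, whereas the methods of the study give a shorter time. All cultures were grown at 25 °C, and no heat treatment is recorded for any of them, so every value below is a level in cells that were not deliberately heated.

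In flies Hsf is present before any stress and, on heating, forms trimers that bind heat shock elements in the promoters of its target genes. Hsp22, Hsp23, Hsp26, Hsp27 and Hsp68 are known as targets that are strongly induced by heat, and the small heat shock genes are also switched on during development. Hsp83 is expressed at a high level in most cells without heat and rises further with it. The 4 small heat shock proteins share an alpha-crystallin domain and differ in where they act, with Hsp22 in mitochondria and Hsp27 in the nucleus.

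By the RefSeq annotation of the current fly assembly, Hsp22, Hsp26, Hsp23 and Hsp27 lie in this order within a single cluster on chromosome arm 3L, with only CG4461, Hsp67Ba and an antisense RNA between them. Hsp83 lies elsewhere on 3L, Hsp68 on 3R and Hsf on 2R. Some members overlap another gene there, namely CG4456 at Hsp22, CR43483 at Hsp27, CG6000 and lncRNA:CR44097 at Hsp68, and CG14966 at Hsp83. The sources used here do not state that strand was used in counting, so reads of such overlapping genes may not be told apart from those of the member.

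The deposited values are estimated counts of reads per gene, and they summed to between 14727743 and 16607051 per library. Levels are given in CPM, a count divided by the size of its library, after TMM scaling, which corrects for differences in composition between libraries. They are not divided by gene length and are therefore compared between libraries and not between genes. The members had between 2005 and 230244 counts in a library, so that counting error alone was between 0.208% and 2.23% of a value. The totals exceed the number of reads that the study states for a library, and the true counting error may be somewhat larger. All 7 members passed the filter of edgeR on low counts, which left 8299 genes to be tested.

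The 6 Hsp genes were lower in both Lam-KD libraries than in both control libraries, whereas Hsf was not. The fold difference was 0.630 for Hsp27, 0.660 for Hsp22, 0.737 for Hsp26, 0.751 for Hsp23, 0.756 for Hsp68 and 0.834 for Hsp83, given as Lam-KD over control. Hsf, the factor that regulates these genes under stress, had a fold difference of 1.00. RNA of whole cultures was measured, so a lower level in every cell and fewer cells with a high level cannot be told apart. By edgeR's quasi-likelihood test with Benjamini-Hochberg adjustment over all genes, 0 of the 7 members passed an adjusted p of 0.05, and 0.0361% of the 8299 genes did. At an unadjusted p under 0.05, which allows for no multiple testing, 6 of 7 members were lower in Lam-KD, against 4.52% of all genes tested. Since the members were chosen with earlier results of these data known, such shares describe the set and do not test it. The 6 members whose libraries did not overlap are to be read against a background of 21.8% of all genes tested, and of 27.4% of the 2259 genes with a mean of at least 100 CPM, a level that all 7 members reached and that was chosen after the data had been seen.

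**Figure D1:**
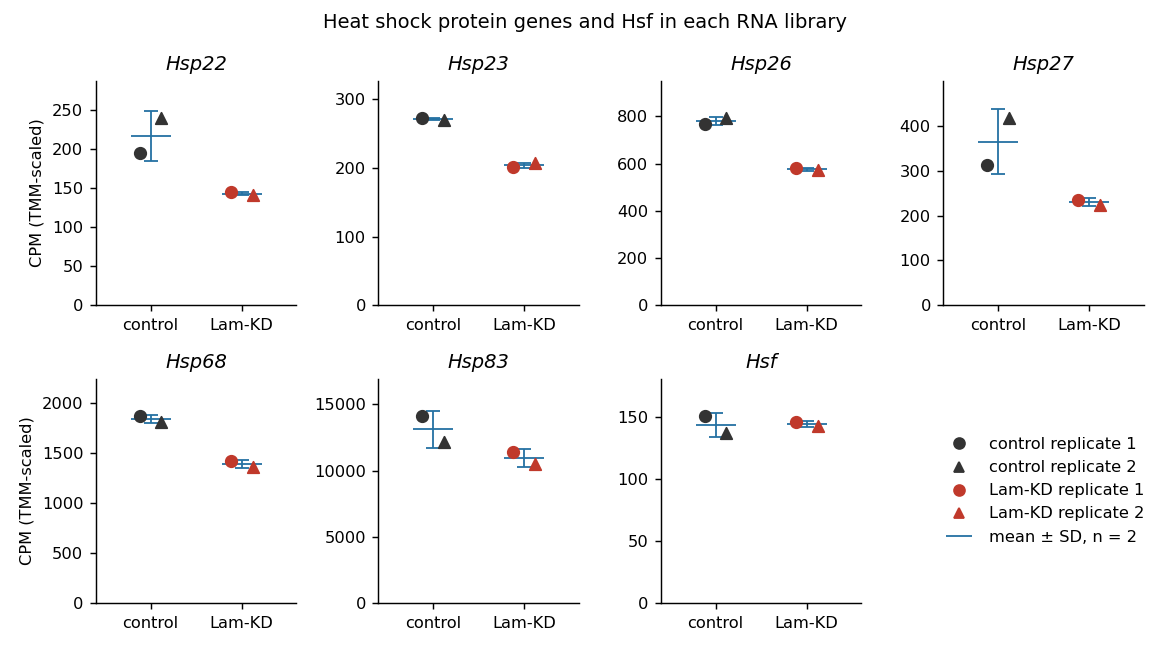
Level of each member in the 4 RNA libraries in TMM-scaled CPM, on axes that start at 0, with points for the libraries and blue marks for the mean ± SD (n = 2 per condition). Both Lam-KD points lie below both control points for the 6 Hsp genes, and the points of the conditions overlap for Hsf.

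Hsp26, a small heat shock protein of the cytosol, was at 770 and 791 CPM in control replicates 1 and 2 and at 580 and 571 CPM in Lam-KD replicates 1 and 2. The replicates of each condition lay close together, and the gap between the conditions was wider than either spread. The log2(FC) was -0.44 with a standard error of 0.072 (edgeR adjusted p = 0.254), and its 95% interval ran from -0.61 to -0.27. Unlike the adjusted p, the interval is for this gene alone and allows for no multiple testing. When each Lam-KD library was set against each control library, the 4 ratios ranged from -0.47 to -0.41.

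Hsp23, another cytosolic small heat shock protein, was at 272 and 270 CPM in the control replicates and at 201 and 207 CPM in the Lam-KD replicates. The control libraries were almost equal and both stood above the Lam-KD libraries. Its log2(FC) was -0.41 with a standard error of 0.076 (edgeR adjusted p = 0.294), from -0.44 to -0.39 over the 4 pairs.

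Hsp22, the mitochondrial member of the group, was at 194 and 239 CPM in control replicates 1 and 2 and at 145 and 141 CPM in the Lam-KD replicates. Here the control libraries differed from each other, with replicate 2 the higher, while the Lam-KD libraries did not spread. For Hsp22 the log2(FC) was -0.60 with a standard error of 0.11 (edgeR adjusted p = 0.310). It was near -0.44 against control replicate 1, with -0.43 and -0.46, and larger against control replicate 2, with -0.73 and -0.76.

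Hsp27, the nuclear member, showed the same uneven controls. It was at 313 and 417 CPM in control replicates 1 and 2 and at 236 and 224 CPM in the Lam-KD replicates. Of the 7 members Hsp27 had the lowest log2(FC), -0.67 with a standard error of 0.14 (edgeR adjusted p = 0.378), and the pairs ranged from -0.90 to -0.41. The log2 ratio of control replicate 2 to control replicate 1 was 0.41 for Hsp27 and 0.30 for Hsp22. It was 0.040 for Hsp26 and -0.011 for Hsp23, although these genes lie in the same cluster. By RefSeq, Hsp22 and Hsp27 overlap another gene, whereas Hsp23 and Hsp26 do not. Hsp68 and Hsp83 also overlap other genes, with control ratios of -0.048 for Hsp68 and -0.22 for Hsp83. The part of such overlaps in these ratios was not tested. Without control replicate 2, the log2(FC) of Hsp27 was -0.45 and that of Hsp22 was -0.44, close to the values of Hsp23 and Hsp26, which were both -0.42 in that fit.

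**Figure D2:**
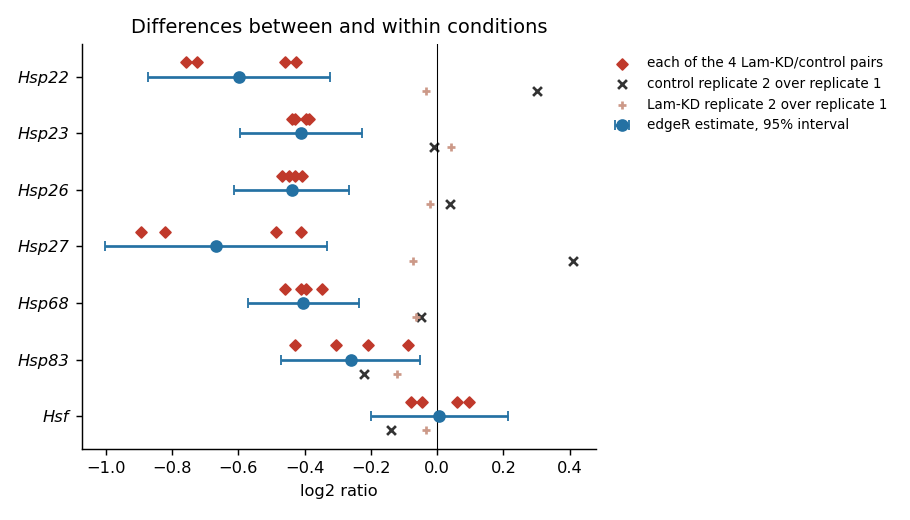
Log2 ratios of each member, with the edgeR estimate and its 95% interval in blue, the 4 pairings of Lam-KD with control libraries in red, and the ratio of the replicates within each condition as crosses. All 24 pair ratios of the Hsp genes are negative. They pair the same 4 libraries and restate that the conditions do not overlap, lower in Lam-KD, as for 21.8% of all genes tested. The replicate ratio of the control cells is widest for Hsp27 (0.41) and Hsp22 (0.30).

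Set against each other within a library, the 4 small heat shock genes kept nearly fixed proportions in 3 of the 4 libraries. Hsp26 took 49.7% of their summed counts in control replicate 1, 49.9% in Lam-KD replicate 1 and 50.0% in Lam-KD replicate 2. Hsp27 took 20.2%, 20.3% and 19.6% in the same libraries. Control replicate 2 stood apart from these, with 46.1% for Hsp26 and 24.3% for Hsp27. Such shares depend neither on depth nor on the scaling of the libraries, and they are shares of reads and not of molecules. The summed counts of the small heat shock genes were 0.152% and 0.171% of the library in control cells, compared with 0.117% and 0.116% upon Lam-KD.

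**Figure D3:**
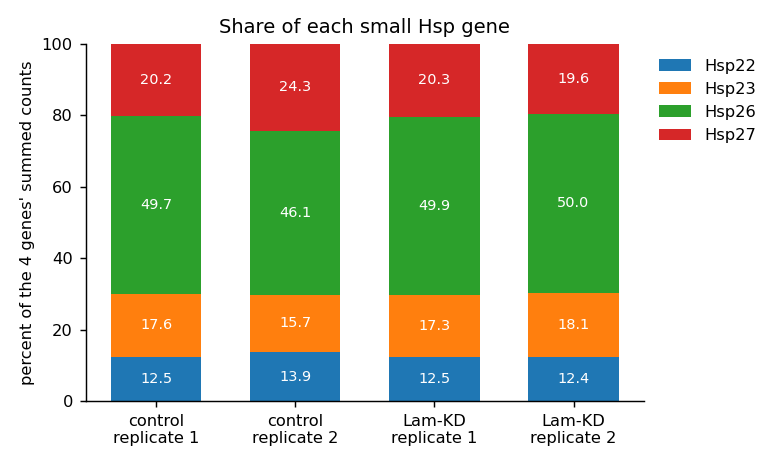
Percent of the summed counts of the 4 small heat shock genes that each of them took in each RNA library, as stacked bars that add up to 100%. Control replicate 2 has more Hsp27 (24.3%) and less Hsp26 (46.1%) than the other libraries, in which Hsp27 lies between 19.6% and 20.3%.

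Hsp68, an Hsp70 chaperone that binds unfolded stretches of other proteins, was at 1867 and 1806 CPM in the control replicates and at 1419 and 1357 CPM in the Lam-KD replicates. The replicates of both conditions agreed closely. Its log2(FC) was -0.40 with a standard error of 0.069 (edgeR adjusted p = 0.261), and it ranged from -0.46 to -0.35 over the pairs. The Hsp70 genes proper, near-identical copies of which Hsp68 is a relative, could not be looked up and are not analysed here.

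Hsp83, whose product folds signalling proteins such as kinases and nuclear receptors, was at 14114 and 12122 CPM in control replicates 1 and 2 and at 11408 and 10480 CPM in Lam-KD replicates 1 and 2. This single gene held 1.39% and 1.21% of all counts in control cells, compared with 1.15% and 1.06% upon Lam-KD. The lower control library was only slightly above the higher Lam-KD library. The log2(FC) was -0.26 with a standard error of 0.087 (edgeR adjusted p = 0.507), and the pairs ranged from -0.43 to -0.088, while the control replicates themselves differed by -0.22 in log2, replicate 2 being the lower. The controls of Hsp83 thus differed in the opposite direction from those of Hsp22 and Hsp27.

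Hsf was at 150 and 137 CPM in control cells and reached 146 and 142 CPM upon Lam-KD, so that both Lam-KD values lay between the control values. The log2(FC) was 0.0061 with a 95% interval from -0.20 to 0.21 (edgeR adjusted p = 0.985). This interval leaves room for a fold difference between 0.870 and 1.16. With counts set against those of Hsf in the same library, which needs no scaling between libraries, all 6 Hsp genes were lower in both Lam-KD libraries. Because Hsf differed little, this largely repeats the lack of overlap given above, for which the background was 21.8% of all genes tested. The share of all genes with a lower ratio to Hsf was not computed. Hsp68 had 12.4 and 13.2 counts per Hsf count in control cells, compared with 9.73 and 9.53 upon Lam-KD. For Hsp83 the ratio was 93.9 and 88.8 in control cells, compared with 78.3 and 73.6 upon Lam-KD.

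The median log2(FC) was -0.41 over the 7 members and -0.43 over the 6 Hsp genes, compared with 0.0074 over all 8299 genes tested. A level-dependent offset lay beside the values of Hsp68 and Hsp83. Of the 133 genes with a mean of at least 1000 CPM, 105 had a log2(FC) below 0, with a median of -0.12, whereas the median was 0.0041 over the 2126 genes between 100 and 1000 CPM. Within the class above 1000 CPM, 2 genes had a lower log2(FC) than Hsp68 and 8 had a lower one than Hsp83. Among the genes between 100 and 1000 CPM, 1 gene was lower than Hsp27, 2 were lower than Hsp22, 5 than Hsp26 and 7 than Hsp23. These counts include other members, such as Hsp27 among the genes below Hsp22 and Hsp68 among those below Hsp83. Over all 8299 genes tested, the share with a lower log2(FC) ran from 1.08% for Hsp27 to 6.77% for Hsp83 among the Hsp genes. The part of the level-dependent offset in the difference of Hsp83 was not tested. These classes of level were drawn after the data had been seen.

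**Figure D4:**
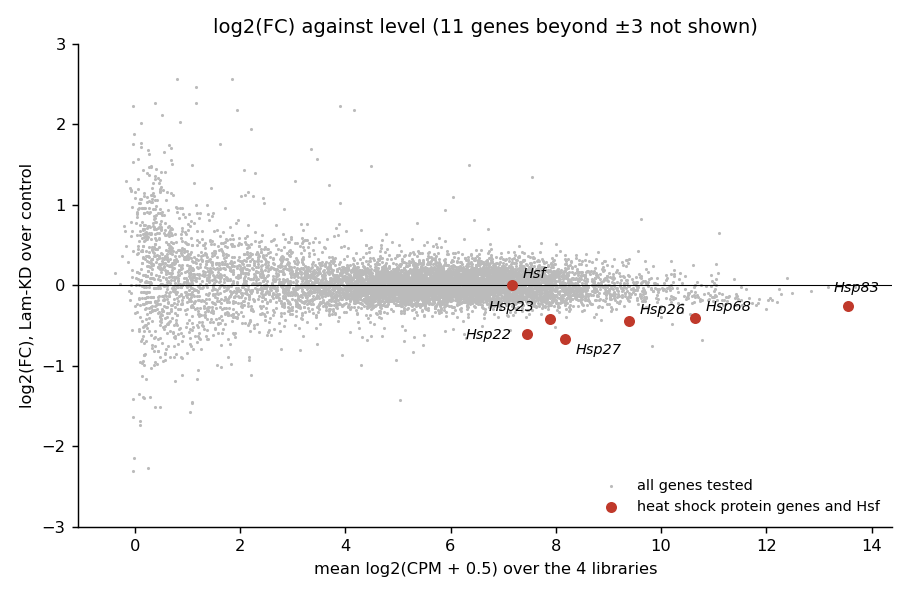
Log2(FC) of Lam-KD over control against the mean log2(CPM + 0.5) of the 4 libraries, with all 8299 genes tested in grey and the 7 members in red. The Hsp genes lie along the lower edge of the cloud at their level, from -0.67 for Hsp27 to -0.26 for Hsp83, Hsf lies at its centre, and the cloud itself bends below 0 at the highest levels.

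Whether the difference of the Hsp genes passed a threshold depended on the test. DESeq2 called 5 of the 7 members lower in Lam-KD, namely Hsp22 (DESeq2 adjusted p = 0.00301), Hsp23 (0.0115), Hsp26 (0.00120), Hsp27 (0.00301) and Hsp68 (0.00453), against a background of 0.229% of genes called lower. It did not call Hsp83 (DESeq2 adjusted p = 0.710) or Hsf (1.00). The exact test of edgeR called the same 5 members lower, with 0.301% of all genes called lower. The quasi-likelihood test called 0 of them with all 4 libraries, 5 without control replicate 1 (Hsp22, Hsp23, Hsp26, Hsp27 and Hsp68, background 2.84% called lower) and 4 without control replicate 2 (Hsp22, Hsp23, Hsp26 and Hsp27, background 0.281%). Without Lam-KD replicate 1 it called 0 members and 6 of 8517 genes lower, and without Lam-KD replicate 2 it called 0 members and 2 of 8450 genes lower. With a single library left in a condition, that library is assumed to vary like the others.

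**Figure D5:**
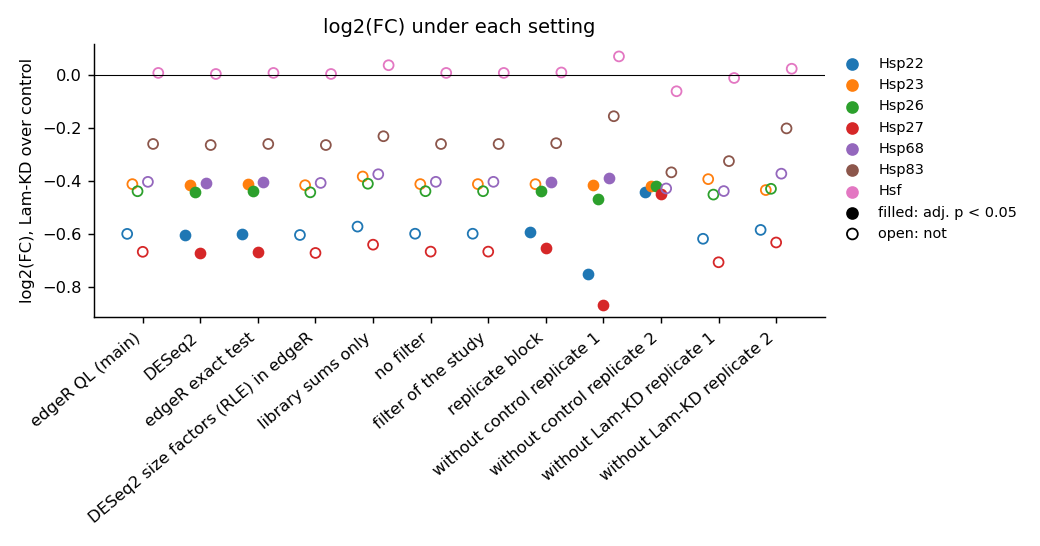
Log2(FC) of each member under the quasi-likelihood test and the 11 alternative settings, with filled points for an adjusted p under 0.05 and open points otherwise. The Hsp genes stay below 0 in every setting shown, from -0.87 for Hsp27 without control replicate 1 to -0.16 for Hsp83 without control replicate 1, while Hsf lies between -0.063 and 0.068. The settings refit the same 4 libraries or a subset of them and are not independent.

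For each member, the gene of most similar level over the 4 libraries was sought among the 64 tested genes whose identifier could be paired with a symbol, by Euclidean distance of log2(CPM + 0.5). Hsf had snama, which encodes a RING-finger protein, at a distance of 0.043, with 153, 135, 144 and 140 CPM in control replicates 1 and 2 and Lam-KD replicates 1 and 2. The next closest were CG4570 to Hsp23 at 0.26 and lwr, the gene of the SUMO-conjugating enzyme, to Hsp26 at 0.27. Other members had no close gene with a symbol, and the distances were 0.69 from Hsp22 to ScsbetaA, 0.70 from Hsp27 to Nasp, and 1.06 from Hsp68 and 5.02 from Hsp83 to LanA. With 4 libraries, such a likeness mostly reflects a like level.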

How the data were processed

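RNA-seq libraries of S2 cells were used, 2 from control and 2 from Lam-KD cells, which the labels describe as biological replicates. The authors mapped single-end reads to dm3 with HISAT2 2.1.0, removed reads of low mapping quality with SAMtools, quantified genes with StringTie and deposited estimated counts per gene, which are whole numbers and not scaled to depth. Of the 15149 rows 15050 carry a FlyBase gene identifier, and the 99 others held between 0.0318% and 0.0329% of a library and were kept.

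The members and gene lists were chosen with earlier results of these data known. Differential expression was fitted across all genes with edgeR 4.0.16 in R 4.3.3 (TMM, edgeR's filter on low counts, quasi-likelihood test, Benjamini-Hochberg adjusted p under 0.05), and with DESeq2 1.42.0 as an alternative. Standard errors and 95% intervals were derived from the F statistic of edgeR for each gene alone, with no allowance for multiple testing. The fits were run on simulated data of equal variability for all genes, where only the median fitted log2(FC) was required to lie near the true one. That run set no requirement on the p-values. By the labels, replicates 1 and 2 share only a number between conditions, and the fit held no term for it. Other alternatives changed the scaling, the filter and the libraries included.

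All 7 members were named by rule, with their identities taken from the list that defines them. Symbols of other genes came from RefSeq synonyms (Release 6), which paired 135 of 15050 identifiers. None of the 140 symbols in 9 further lists (other heat-inducible genes, constitutive Hsp70 genes and partners, Hsp90 co-chaperones, chaperonin and prefoldin, heat shock transcription machinery, other stress responses, hemocyte markers, markers of other cell types, lamins) was among them, so these lists, the cell type and the RNA of the targeted lamin Dm0 gene were not checked here, and which libraries are control and which Lam-KD rests on the labels alone. The 8 ChIP and input and 4 Hi-C libraries were not used, because positions of the genes on dm3 are not in the sources used here. Plots were drawn with matplotlib 3.10.9 in Python 3.11.15.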

Additional observations from a re-analysis of the deposited data

How the results depend on the processing

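All 66 values of log2(FC) of the 6 Hsp genes under the 11 alternatives were below 0. They are refits of the same 4 libraries or of a subset of them. All 24 pairs of a Lam-KD with a control library were already negative for these genes, so the sign could hardly differ and is no separate support. In the quasi-likelihood test on all libraries, 0 of the 6 genes passed an adjusted p of 0.05. Hsf changed sign in 2 of the 4 fits that left out a library, reading -0.063 once control replicate 2 was dropped and -0.013 once Lam-KD replicate 1 was, and the highest of the 4 values was 0.068. The quasi-likelihood test on all libraries called 3 genes. DESeq2 called 42 genes and 5 members, and the exact test of edgeR 70 genes and 5 members. Scaling by library sums alone gave 7 genes and 0 members, and the filter of the study, which drops genes at 0 in more than 2 libraries, gave 0 genes, with 945 at an unadjusted p under 0.05. Leaving out 1 library gave between 14 and 797 genes and between 0 and 5 members. With the replicate number as a block, edgeR called 59 genes, 24 of them lower, and 4 members (Hsp22, Hsp26, Hsp27 and Hsp68). The replicate differences of the control and the Lam-KD cells had a correlation of 0.026 across 8299 genes, each given the same weight. Of these genes 6040 had a mean under 100 CPM, where counting noise pulls such a value towards 0. It therefore cannot decide whether same-numbered libraries deviate together. The cause of the differences between settings was not tested.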
